A study of Mus musculus with 4 samples.

Results

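The muscleblind genes Mbnl1, Mbnl2 and Mbnl3 were followed across cell classes and between control and DUX-pulsed cells of mouse embryoid bodies, aggregates in which embryonic stem cells differentiate, at day 9. They were 3 of the 20284 genes in the table and were chosen by name because their levels differed between the 2 groups, so their own values are described without a test. The control group came from embryonic stem cells without the pulse. The DUX-pulsed group came from embryonic stem cells given a pulse of DUX, a transcription factor of the early mouse embryo. Each group had 2 libraries, described by the submitters as biological replicates, and each library was a 10x Genomics droplet library of single cells. The stem cell line, its clones, its strain, and the dose and time of the pulse were not given in the sources used here, nor whether both groups came from the same line or clone.

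Muscleblind proteins are zinc finger proteins that bind RNA and steer alternative splicing, and they promote splice forms typical of differentiated tissue. They are best known from myotonic dystrophy, in which expanded CUG or CCUG repeats in RNA hold them away from their targets. MBNL1 and MBNL2 act in muscle, heart and brain, and MBNL3 has been studied mainly in muscle precursors and placenta.

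Counts were unique molecular identifiers (UMIs), each standing for 1 captured RNA molecule, and levels are given as CPM, a gene's UMIs scaled to a common library total. Kept cells numbered 2824 and 2636 in control replicates 1 and 2, and 2063 and 1353 in DUX-pulsed replicates 1 and 2. Library totals ran from 36462169 to 96344329 UMIs. DUX-pulsed replicate 2 was the smallest library, and 21.8% of its cells had under 5000 UMIs. Only 8 cell barcodes occurred in more than 1 library. RNA of the Y-linked genes Ddx3y and Eif2s3y separated the groups: both stood at 0 UMIs in both control libraries and at 511 to 772 UMIs in the DUX-pulsed libraries. The cells of the groups therefore also differed in Y-linked RNA, and DUX treatment, this difference and a difference of line or clone cannot be told apart here. This holds for every comparison of the groups below.

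On the mouse build mm10, with GENCODE vM21 (GRCm38) gene models, Mbnl1 lies on the plus strand of chromosome 3 (60472830 to 60629750), Mbnl2 on the plus strand of chromosome 14 (120275669 to 120431697) and Mbnl3 on the minus strand of chromosome X (51117269 to 51206532). All 3 are annotated as protein coding. Annotated genes overlap Mbnl1 (Gm37589 and Gm37488) and Mbnl2 (Gm26679, antisense), and these were not analysed here. The transcripts of the 3 genes shared no stretch of 90 bases. Mbnl1 shared at most 26 bases with Mbnl2 and 26 with Mbnl3, and Mbnl2 and Mbnl3 shared no stretch of 20. The sequences just upstream of the RefSeq start of Mbnl2 and Mbnl3, the members with the 2 larger differences between groups, are shown so that their CG content can be compared (RefSeq, GRCm38.p6, 250 bases on the gene's strand, 5′ to 3′, with each CG pair in capitals).

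Mbnl2, chr14:120275419-120275668, plus strand: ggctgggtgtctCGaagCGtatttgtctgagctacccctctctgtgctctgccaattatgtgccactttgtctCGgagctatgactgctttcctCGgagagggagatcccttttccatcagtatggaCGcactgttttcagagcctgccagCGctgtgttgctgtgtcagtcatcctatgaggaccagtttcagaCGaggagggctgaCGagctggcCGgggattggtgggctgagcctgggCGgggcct

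Mbnl3, chrX:51205991-51206240, minus strand: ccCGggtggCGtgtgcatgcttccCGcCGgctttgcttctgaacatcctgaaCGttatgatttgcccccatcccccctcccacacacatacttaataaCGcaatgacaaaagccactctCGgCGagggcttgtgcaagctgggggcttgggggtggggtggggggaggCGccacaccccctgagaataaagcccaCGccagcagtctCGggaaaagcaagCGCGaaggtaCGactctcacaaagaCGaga

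The Mbnl2 window held 10 CG pairs, and 62.2% of the 32851 RefSeq promoter windows of this length held fewer. The Mbnl3 window held 15, and 72.7% held fewer. The RefSeq start of Mbnl3 lies inside the GENCODE gene, so its window falls within the annotated gene but on no annotated exon. These data hold no measurement on the promoters themselves.

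In the whole culture, each of the 3 genes was higher in both DUX-pulsed libraries than in both control libraries. The difference was largest for Mbnl3, smaller for Mbnl2 and smallest for Mbnl1. Both DUX-pulsed libraries lay above both controls for 33.6% of the 16140 genes tested, and below both for 34.0%. All 3 members passed the filter on low counts. Mbnl3, on the X chromosome, stood at 1.65 and 1.85 CPM in control replicates 1 and 2 and at 24.97 and 28.78 CPM in DUX-pulsed replicates 1 and 2. These values came from 157 and 152 control UMIs and 1564 and 1046 DUX-pulsed UMIs. The groups were far apart, with means of 1.75 CPM ± 0.142 (SD, n = 2) and 26.9 CPM ± 2.70 (SD, n = 2). The log2 fold change was 3.94 ± 0.19 (SE, edgeR), which is 15.4-fold, and 169 of the 16140 tested genes had a larger one.

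Mbnl2 stood at 35.3 and 40.2 CPM in the controls and at 112.1 and 139.4 CPM in the DUX-pulsed libraries. Its log2 fold change was 1.74 ± 0.18 (SE), or 3.33-fold. Mbnl1 stood at 21.6 and 19.5 CPM in the controls and at 38.4 and 39.2 CPM in the DUX-pulsed libraries. Its log2 fold change was 0.91 ± 0.14 (SE), or 1.88-fold.

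**Figure D1:**
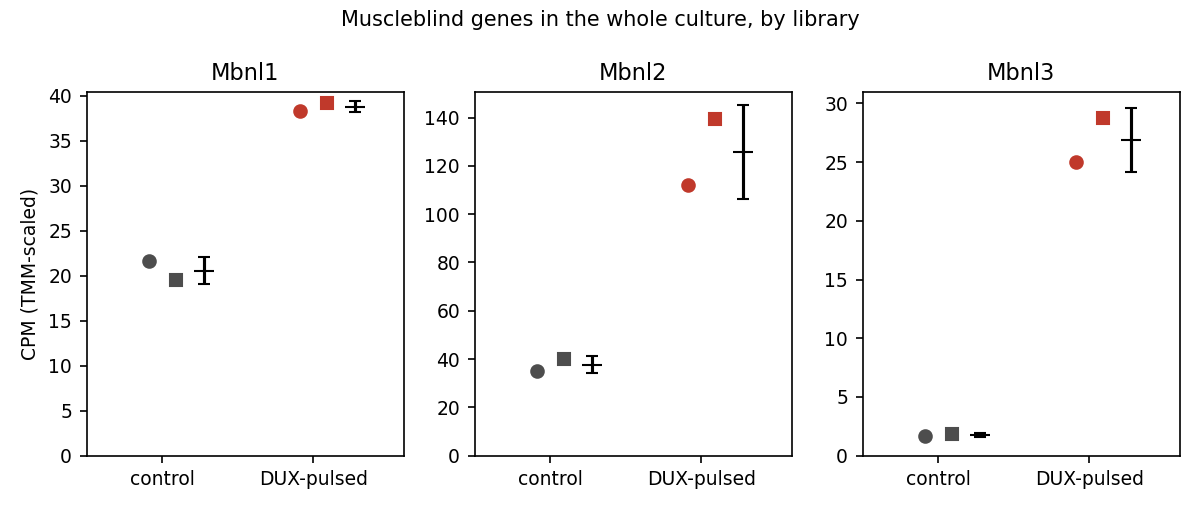
Levels of Mbnl1, Mbnl2 and Mbnl3 in the whole culture, as TMM-scaled CPM on axes that start at 0. Circles are replicate 1, squares replicate 2, and the black bar is the mean ± SD of 2 libraries. No DUX-pulsed library overlaps a control, and Mbnl3 goes from under 2 to over 24 CPM.

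The same order of differences was found at equal depth per cell. With every cell thinned to 5000 UMIs and shallower cells left out, Mbnl3 had a UMI in 0.742% (95% exact binomial interval 0.440 to 1.17%) and 0.924% (0.565 to 1.42%) of cells of control replicates 1 and 2. In DUX-pulsed replicates 1 and 2 it had one in 5.36% (4.39 to 6.47%) and 7.75% (6.21 to 9.53%) of cells. Before thinning, the control shares were 4.25% and 4.48%, and the DUX-pulsed shares were 13.5% and 15.5%. Mbnl3 was read in a small minority of cells. Single cells reached 67 and 49 UMIs in the DUX-pulsed libraries, while the highest control cells had 5 and 15. Mbnl2 had a UMI in 39.0% and 47.0% of thinned DUX-pulsed cells, where the control libraries had 17.2% and 19.7%. These intervals cover counting error only.

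Classes of cells were named from clusters by their marker genes, and a class is called "-like" for that reason. All 16 mesenchyme and fibroblast markers, all 17 cardiomyocyte markers, all 13 erythroid markers, all 16 myeloid and megakaryocyte markers, all 13 endothelium markers and 13 of 14 trophoblast markers were over 2-fold above the rest in the class of that name. The counts were 11 of 12 for parietal endoderm-like cells, 11 of 16 for visceral and primitive endoderm-like cells and 6 of 10 for primitive streak and nascent mesoderm-like cells, which are less firmly named. Those markers also chose the names. The clusters left unnamed are called by number. The classes differed greatly in size between the groups, so a level in the whole culture mixes the level within cells with the number of cells. A sum over the whole culture cannot tell fewer cells of a type from less RNA per cell, so levels and cell numbers are given by class below. Class levels are CPM over the UMIs of the class in a library, whereas fitted fold changes use TMM-scaled library sizes.

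Mbnl3 was concentrated in the trophoblast-like and the mesenchyme and fibroblast-like cells. In trophoblast-like cells, led by Rhox9, Rhox6 and Tfap2c, Mbnl3 reached 257.8 CPM in the 38 cells of DUX-pulsed replicate 1 and 357.1 CPM in the 16 cells of replicate 2. The controls held 1 such cell in all, of 2564 UMIs with no Mbnl3 UMI, so no comparison between groups was possible in this class. After thinning, 62.9% (44.9 to 78.5%) and 90.9% (58.7 to 99.8%) of the trophoblast-like cells still had a Mbnl3 UMI.

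In mesenchyme and fibroblast-like cells, which carry collagen genes and Postn, Mbnl3 stood at 7.60 and 10.99 CPM in the controls (46 and 39 UMIs) and at 65.7 and 75.1 CPM in the DUX-pulsed libraries (906 and 773 UMIs). The groups did not overlap, and the log2 fold change within the class was 3.11 ± 0.22 (SE), or 8.61-fold. The shares of thinned cells with a Mbnl3 UMI were 2.29% and 1.55% for control replicates 1 and 2, and 14.0% and 19.4% for DUX-pulsed replicates 1 and 2. In cardiomyocyte-like cells of the same libraries, taken as a reference of like depth, the thinned shares lay at 0.877% and 0 in the controls and at 1.57% and 0.778% in the DUX-pulsed libraries. Median depth was 24031 to 30979.5 UMIs in the mesenchyme and fibroblast-like cells and 21975 to 27031 UMIs in the cardiomyocyte-like cells.

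The class held cells of unequal Mbnl3 level. In cluster 1, led by Postn, Col1a1 and Upk3b, Mbnl3 stood at 9.21 and 8.30 CPM in the controls and at 98.8 and 103.7 CPM in the DUX-pulsed libraries. In cluster 0, led by Ptn, Col3a1 and Cthrc1, it stood at 5.27 and 22.9 CPM in the controls and at 31.0 and 36.4 CPM in the DUX-pulsed libraries. The higher control value came from 15 UMIs in 26 cells. A finer clustering (Leiden resolution 2) gave cluster 18, led by Lum, Postn and Col1a1, in which Mbnl3 stood at 25.3 and 28.0 CPM in the controls and at 164.7 and 136.0 CPM in the DUX-pulsed libraries. It also left out of the class an unnamed cluster led by Bgn, Lrrn3 and Rgs5, with Mbnl3 at 6.77 and 4.02 CPM in the DUX-pulsed libraries and 2 UMIs in all in the controls. With the class drawn in this finer way the log2 fold change was 2.55, and with the muscleblind genes left out of the clustering it was 2.46. The DUX-pulsed libraries were higher in each of these clusters, and the size of the difference within mesenchyme depended on which cells were counted in the class.

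Mbnl3 was also higher in endothelium-like cells, which line vessels, at 16.6 and 14.8 CPM in the DUX-pulsed libraries, where the controls had 3.66 and 4.10 CPM. The control values rest on 5 and 1 UMIs. In cluster 16, led by Dppa5a, Sox2, Foxe1 and Wnt6, it stood at 9.48 and 14.95 CPM in the DUX-pulsed libraries and at 1.42 and 2.45 CPM in the controls, a log2 fold change of 2.65 ± 0.56 (SE). At the finer resolution a pluripotency-like cluster of 39 cells, 34 of them from control replicate 1, separated from this cluster. In the remaining cluster, led by Foxe1 and Sox2, Mbnl3 stood at 9.28 and 20.3 CPM in the DUX-pulsed libraries and at 1.81 and 2.73 CPM in the controls.

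Other classes and clusters had lower levels of Mbnl3. In cluster 7, led by Anpep and Tff3, it stood at 4.51 and 2.76 CPM in the controls, from 26 and 21 UMIs, and this cluster held 16.6% and 13.8% of control Mbnl3 UMIs. In cluster 8, led by Ly6h and Dio3, it stood at 1.43 and 1.93 CPM in the controls, from 18 and 31 UMIs. Cluster 8 held 11.46% and 20.39% of control Mbnl3 UMIs, and cluster 20 held 9.55% and 16.45%. The DUX-pulsed libraries had at most 11 cells of cluster 7 or of cluster 8, with no Mbnl3 UMI. Cardiomyocyte-like cells held 35 Mbnl3 UMIs in all, at 0.891 to 1.96 CPM. Erythroid-like cells held none in any of the 4 libraries, where 3 counts would have given 3.12 to 8.24 CPM. In cluster 5 (led by Ghrl, Cdkn2b and Shh) and cluster 10 (led by Ghrl, Cldn4 and Cdkn2b), Mbnl3 was lower in the DUX-pulsed libraries. It stood at 2.07 and 1.97 against 5.74 and 3.46 CPM in cluster 5, and at 1.999 and 1.368 against 5.04 and 6.85 CPM in cluster 10, from 4 to 15 UMIs a library. In cardiomyocyte-like cells and in these 2 clusters Mbnl3 did not pass the filter on low counts and has no fitted value. Cluster 5 held 38 and 35 control cells, and cluster 10 held 30 and 25. At the finer resolution the cluster led by Ghrl, Cdkn2b and Krt20 held 17 and 8 control cells. The one led by Ghrl, Afp and Rgs17 held 10 and 11. The part of cell kind in the lower Mbnl3 of clusters 5 and 10 was not tested.

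The mesenchyme and fibroblast-like class accounted for 57.9% and 73.9% of all Mbnl3 UMIs of the DUX-pulsed libraries, and the trophoblast-like class held 33.8% and 18.7%. In the controls the mesenchyme and fibroblast-like class held 29.3% and 25.7%. Outside these 2 classes Mbnl3 stood at 2.62 and 3.01 CPM in the DUX-pulsed libraries and at 1.23 and 1.51 CPM in the controls, a ratio of means of 2.05. Both classes took larger shares of the DUX-pulsed libraries: mesenchyme and fibroblast-like cells made up 22.8% and 23.8% of cells there, against 7.79% and 5.12% of the cells of the controls.

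**Figure D2:**
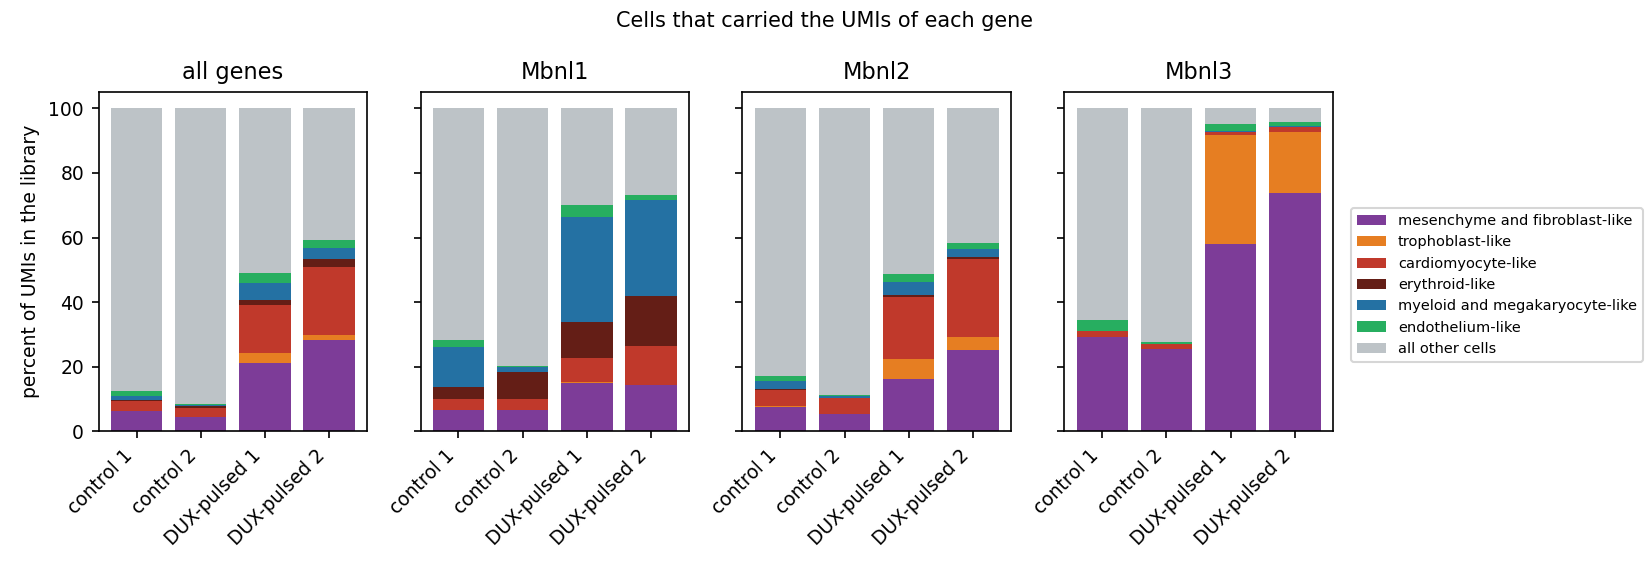
Percent of each library's UMIs that came from each cell class, for all genes and for Mbnl1, Mbnl2 and Mbnl3. In the DUX-pulsed libraries the mesenchyme and fibroblast-like and trophoblast-like cells carry most of Mbnl3, and the myeloid and megakaryocyte-like cells carry 32.4% and 29.8% of Mbnl1.

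Mbnl1 was highest in blood cells in both groups. In myeloid and megakaryocyte-like cells it stood at 225.8 and 360.7 CPM in the DUX-pulsed libraries and at 201.0 and 251.9 CPM in the controls, and the groups overlapped. Control replicate 2 had 9 such cells, with 25 Mbnl1 UMIs. In erythroid-like cells, which carry the globins, it stood at 302.7 and 225.7 CPM in the DUX-pulsed libraries and at 205.9 and 285.9 CPM in the controls, and the groups overlapped again. At the finer resolution Mbnl1 was high both in a cluster led by Tyrobp and C1qb (263.7 and 423.2 CPM in the DUX-pulsed libraries) and in a cluster led by Pf4 and Clec1b (146.0 and 261.4 CPM). Control cells were nearly all in the second, at 190.7 and 251.9 CPM, with 1 control cell in the first.

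Of the 9 classes and clusters ranked in the DUX-pulsed libraries (at least 20 cells in each library), the myeloid and megakaryocyte-like and erythroid-like cells came first and second in Mbnl1, with overlapping values. They were clear of the third, cluster 16, at 29.0 and 40.4 CPM. The remaining 6 ran from 15.5 to 40.7 CPM, and each overlapped its neighbour in the order. Trophoblast-like cells, too few in replicate 2 to be ranked, had Mbnl1 at 4.39 and 5.47 CPM from 9 and 3 UMIs. In the controls, where each blood class had under 20 cells in 1 library, the 12 ranked classes and clusters ran from 8.24 to 32.2 CPM.

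Blood cells were scarce in the controls. The myeloid and megakaryocyte-like class had 102 and 37 cells in the DUX-pulsed libraries and 38 and 9 in the larger control libraries. The erythroid-like class had 56 and 38 DUX-pulsed cells and 19 and 27 control cells. The myeloid and megakaryocyte-like class held 32.4% and 29.8% of DUX-pulsed Mbnl1 UMIs and the erythroid-like class held 11.4% and 15.2%. With both classes left out, Mbnl1 stood at 22.3 and 22.8 CPM in the DUX-pulsed libraries and at 18.3 and 18.7 CPM in the controls. The ratio of means was then 1.22, against 1.88-fold in the whole culture.

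Within single classes the size of the Mbnl1 difference varied. The log2 fold change of Mbnl1 was smaller than its SE in cardiomyocyte-like cells (-0.12 ± 0.23, SE), mesenchyme and fibroblast-like cells (-0.03 ± 0.23) and cluster 10 (-0.06 ± 0.28). It was 0.88 ± 0.28 in cluster 5 and 1.61 ± 0.37 in cluster 16. In cluster 16 Mbnl1 stood at 8.24 and 16.3 CPM in the controls and 40.4 and 29.0 CPM in the DUX-pulsed libraries. With the pluripotency-like cells apart, the controls stood at 14.9 and 20.9 CPM, below both DUX-pulsed libraries.

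Mbnl2 was read in every class and was higher in the DUX-pulsed libraries in most of them. In cardiomyocyte-like cells it stood at 57.4 and 71.3 CPM in the controls and at 141.2 and 159.2 CPM in the DUX-pulsed libraries, a log2 fold change of 1.33 ± 0.21 (SE). Control cardiomyocyte-like cells were mostly in cluster 18, led by Tdgf1 and Ankrd1 (87 and 71 of 137 and 91 cells), and DUX-pulsed ones in cluster 2, led by Tnni3 and Myl3 (277 and 212 of 399 and 281). In mesenchyme and fibroblast-like cells Mbnl2 stood at 42.8 and 50.4 CPM in the controls and at 82.2 and 124.5 CPM in the DUX-pulsed libraries, a log2 fold change of 1.30 ± 0.23. The values were 1.43 ± 0.22 in cluster 5, 1.91 ± 0.23 in cluster 10 and 1.84 ± 0.35 in cluster 16. Trophoblast-like cells of the DUX-pulsed libraries had 213.4 and 349.8 CPM of Mbnl2.

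Over the 12 classes and clusters with at least 5 cells in every library, both DUX-pulsed libraries lay above both controls in 9 for Mbnl2, and the groups overlapped in the other 3. For Mbnl1 they lay above in 2, below in 3 and overlapped in 7. For Mbnl3 they lay above in 5, below in 4 and overlapped in 3. In 2 of those 4, clusters 8 and 20, the DUX-pulsed libraries had 6 to 13 cells with no Mbnl3 UMI, and 3 counts there would have given 5.59 to 17.4 CPM, more than the control levels. Clusters 8 and 20 were also among those below for Mbnl1, from 0 to 4 Mbnl1 UMIs in each DUX-pulsed library. Among those above for Mbnl3, myeloid and megakaryocyte-like cells had 2 and 4 UMIs in the DUX-pulsed libraries and 0 in each control. The cardiomyocyte-like cells, also above, had 3 and 2 Mbnl3 UMIs in the controls. Within the 5 classes and clusters that could be fitted (at least 20 cells in every library), 24.2% to 29.5% of all tested genes lay above without overlap. In the cardiomyocyte-like cells 29.3% lay above and 28.2% below, and in the mesenchyme and fibroblast-like cells 25.9% lay above and 25.9% below. In cluster 5 these shares were 24.2% and 24.7%, in cluster 10 they were 29.5% and 26.3%, and in cluster 16 they were 26.1% and 26.7%. No such share is given here for the other classes counted.

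**Figure D3:**
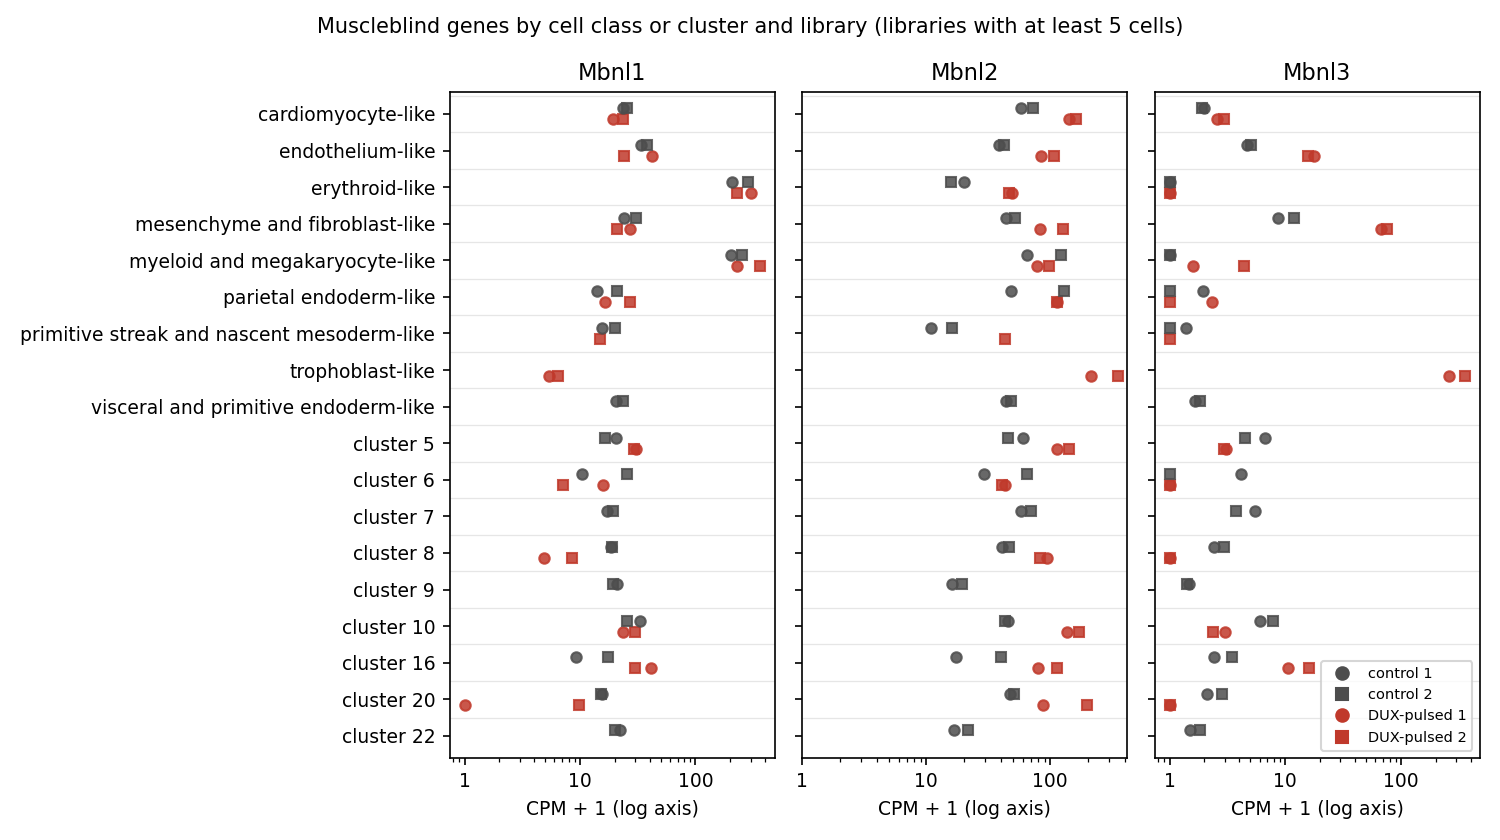
Mbnl1, Mbnl2 and Mbnl3 in each cell class or cluster, as CPM + 1 on a log axis, with 1 point per library that held at least 5 cells of the class. Mbnl1 stands out in the blood classes of both groups, Mbnl2 is shifted to the right in DUX-pulsed libraries in 9 of 12 classes, and Mbnl3 stands out in trophoblast-like and mesenchyme and fibroblast-like cells.

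The part of each difference that goes with class makeup was described by giving each class its control level and weighting the classes by their share of DUX-pulsed UMIs. For Mbnl1 this moved the control level by 0.69 on the log2 scale, of 0.84 observed between the pooled groups. For Mbnl2 it moved it by 0.60 of 1.64, and for Mbnl3 by 1.14 of 3.86. The trophoblast-like control level in this sum rests on 1 cell. The split depended on the weighting. With the makeup held at that of the controls and each class given its DUX-pulsed level, the control level moved by -0.18 for Mbnl1, 1.33 for Mbnl2 and 1.39 for Mbnl3. In that sum the DUX-pulsed levels of units that were large in the controls rest on few cells. Cluster 20, cluster 9 and the visceral and primitive endoderm-like class held 14.2%, 17.3% and 14.3% of the UMIs of control replicate 1. In DUX-pulsed replicates 1 and 2 they had 6 and 13, 3 and 0, and 2 and 2 cells. For Mbnl3 the 2 weightings thus gave levels within classes 2.72 and 1.39 of the 3.86 observed, and no single share can be given to makeup.

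**Figure D4:**
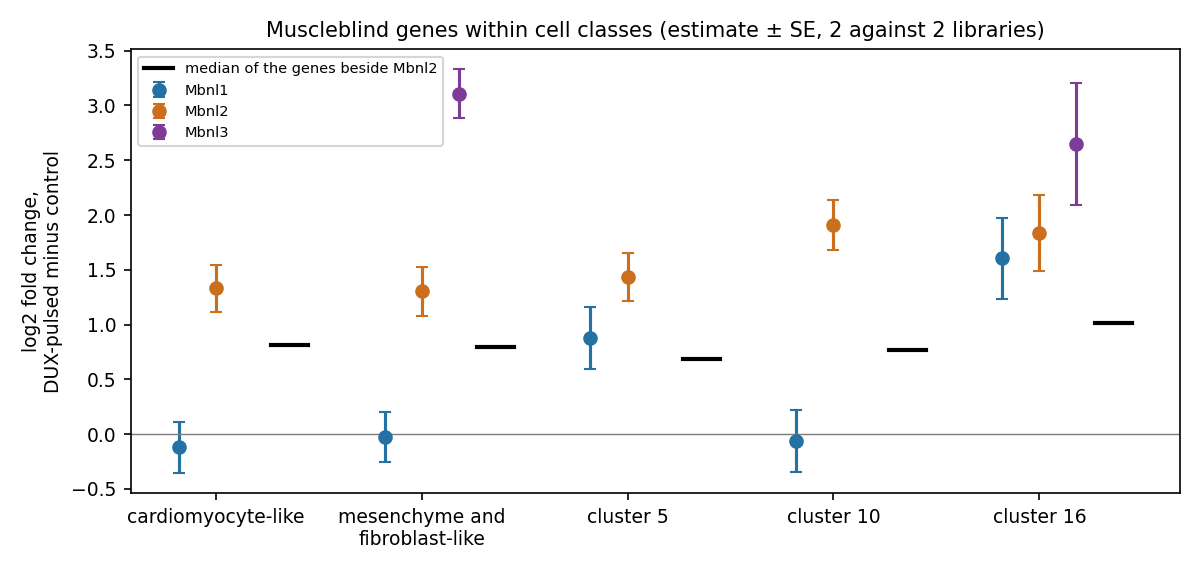
Log2 fold change, DUX-pulsed minus control, of each muscleblind gene within each fitted class or cluster (points, ± SE, 2 against 2 libraries). Black bars are the median log2 fold change of the tested genes beside Mbnl2 on chromosome 14. Mbnl2 lies between 1.30 and 1.91 and above the bar in all 5, and Mbnl1 is near 0 in 3 of 5.

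The genes that surround Mbnl2 on chromosome 14 were higher in the DUX-pulsed libraries as well. Of its 20 nearest tested neighbours, 10 on each side, 10 rose and none fell by edgeR's quasi-likelihood test at an adjusted p of 0.05 (at an unadjusted p of 0.05, 2 were lower; by DESeq2, 11 were higher and 1 lower). Over all genes, 15.6% were called higher and 11.1% lower by edgeR at the adjusted threshold, and no such share is given for DESeq2. Their median log2 fold change was 0.90, against -0.03 for chromosome 14 as a whole. Among all 15546 genes with 20 such neighbours, 3.89% had a neighbour median as high.

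The neighbours that rose included Rap2a, a small GTPase, from 8.55 to 22.1 CPM (log2 fold change 1.37 ± 0.17, SE, adjusted p = 0.00446, edgeR), and Ipo5, an importin of nuclear transport, from 38.9 to 77.2 CPM (0.99 ± 0.15, adjusted p = 0.00666). They also included Farp1 (0.97 ± 0.17), the kinase gene Stk24 (0.88 ± 0.14), Ubac2 (0.92 ± 0.14), Dock9 (1.04 ± 0.21), Tgds (1.09 ± 0.26), Gpr180 (0.83 ± 0.17) and Dzip1 (1.01 ± 0.25). Gpr183, a receptor of immune cells, rose by 5.64 ± 0.86 from 0.0472 to 2.55 CPM.

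The shift of the neighbours was present within each fitted class. Their median log2 fold change was 0.81 in cardiomyocyte-like cells (11 tested), 0.79 in mesenchyme and fibroblast-like cells (11), 0.69 in cluster 5 (11), 0.77 in cluster 10 (13) and 1.01 in cluster 16 (11). The rest of chromosome 14 had medians between -0.05 and 0.02 in the same fits. By distance, the 30 tested genes within 5 Mb of the Mbnl2 start had a median of 0.77, and the 519 genes over 20 Mb before it had a median of -0.04. The 22 genes lying 5 to 20 Mb before it had a median of -0.97, with 4 called higher and 13 lower. Mbnl2 itself lay above the neighbour median in every fitted class. The part of the neighbourhood shift in the Mbnl2 difference was not tested.

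The neighbours of Mbnl3 and Mbnl1 moved in both directions in the whole culture. Of the 20 tested neighbours of Mbnl3 on the X chromosome, 3 rose and 4 fell, with a median of -0.24 (chromosome X as a whole, -0.08). Of all tested genes, 15.6% were called higher and 11.1% lower, and 30.1% of those on chromosome X were called in either direction. The falls were Plac1, a placental gene (33.9 to 12.0 CPM, log2 fold change -1.50 ± 0.23, adjusted p = 0.00753, edgeR), Ccdc160, Usp26 and Gm595. The rises were Rab33a, Fam122b and Gm28730. Within the 5 fitted classes the median of the tested Mbnl3 neighbours was positive. It ran from 0.11 in mesenchyme and fibroblast-like cells to 0.51 in cluster 5. The rest of chromosome X had medians from -0.12 to 0.11 in the same fits. Of the 20 neighbours of Mbnl1 on chromosome 3, 5 rose and 3 fell, with a median of 0.26. On chromosome 3 as a whole, 26.0% of tested genes were called in either direction. The rises included Gpr171, P2ry12, P2ry13 and P2ry14, receptor genes of blood and immune cells, and Mme. Gpr171, P2ry12 and P2ry13 were low throughout, with means of 0.0 to 0.048 CPM in the controls and 0.775 to 1.92 CPM in the DUX-pulsed libraries. The falls were Igsf10, Aadac and Arhgef26.

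**Figure D5:**
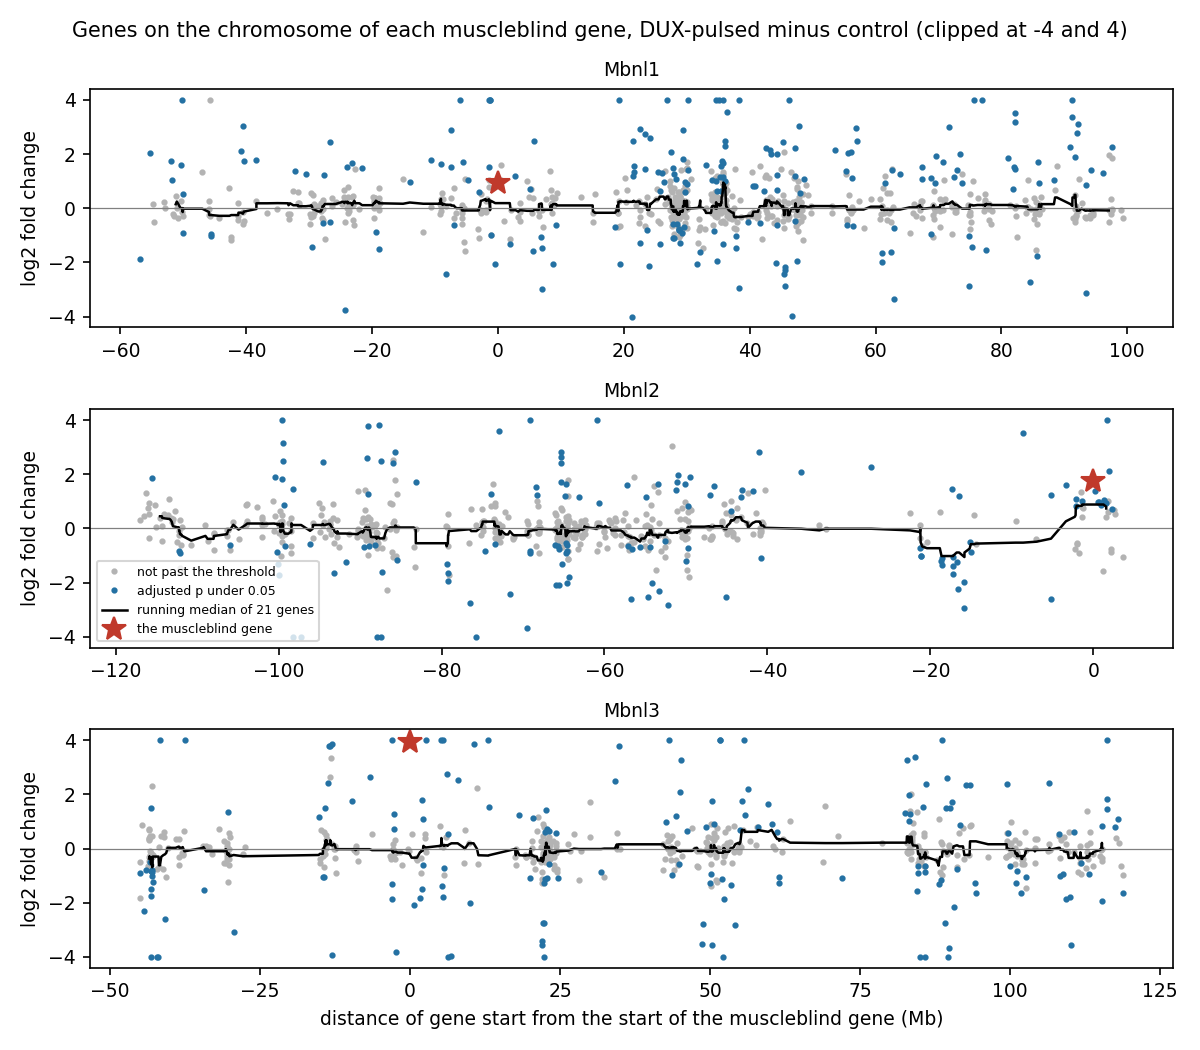
Log2 fold change of every tested gene on the chromosome of Mbnl1, Mbnl2 and Mbnl3 against its distance in Mb from the start of the muscleblind gene (red star). Blue points passed an adjusted p of 0.05 and the black line is a running median. The line rises to about 0.9 around Mbnl2 and stays near 0 around Mbnl1 and Mbnl3.

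X-linked dosage was looked at beside Mbnl3. Xist, the RNA that coats an inactive X chromosome, stood at 10.9 and 1.32 CPM in the controls and at 6.96 and 2.80 CPM in the DUX-pulsed libraries, and did not pass the test (log2 fold change -0.28 ± 0.93, adjusted p = 0.853, edgeR). Its antisense partner Tsix had a log2 fold change of -1.84 ± 0.27 (adjusted p = 0.00642, edgeR). The 2 RNAs overlap and strand was not stated for the counting, so their values cannot be fully separated. Kdm6a, Kdm5c, Eif2s3x and Ddx3x, X-linked genes with Y-linked partners, had log2 fold changes between -0.22 and 0.30, with adjusted p between 0.228 and 0.551 (edgeR). Their part in the Mbnl3 difference was not tested.

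Likeness between genes was measured by Pearson correlation of log2(CPM + 1) over 48 sums of a class or cluster in a library, among 8643 genes. The sums share libraries and depth, so the values only describe. Mbnl1 was most like Nfe2 (r = 0.916), Tspan32 (0.916), Ncf4 (0.908) and Grap2 (0.907). Mbnl3 was most like Anxa1 (0.812), S100a11 (0.755), Ncam1 (0.747), Zdbf2 (0.746) and Rbms1 (0.742). Mbnl2 was most like Erbin (0.786), Capzb (0.773), Cdk13 (0.771), Man1c1 (0.755) and Cox7c (0.755). The members were unlike each other, with r = 0.016 for Mbnl1 and Mbnl2, -0.287 for Mbnl1 and Mbnl3, and 0.472 for Mbnl2 and Mbnl3.

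The sums came from both groups, so likeness to Mbnl2, higher in most DUX-pulsed classes, favours genes with the same group difference. The neighbourhoods of the genes most like Mbnl2 are given with that limit and are not a separate result. Erbin, Cdk13 and Cox7c lie on chromosome 13, and the 20 tested neighbours of each had median log2 fold changes of 0.82, 0.97 and 1.37, with 16, 16 and 18 called higher. Capzb and Man1c1 lie on chromosome 4, with neighbour medians of 0.52 and 1.19. For the genes most like Mbnl3 these medians lay between -0.28 and 0.28. Among those most like Mbnl1 they were 1.45 for Nfe2 (16 neighbours) and 1.04 for Ncf4, both on chromosome 15, and they were 0.06 for Grap2 and 0.52 for Tspan32.

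The muscleblind genes were then set beside 92 other splicing regulators, of which 89 could be tested. In the whole culture 18 rose and 5 fell (edgeR's quasi-likelihood test, Benjamini-Hochberg over all genes). The share called was 25.8%, near the 26.7% of all genes tested, and the list's median log2 fold change was 0.017 (all genes, -0.002). The list as a whole was called about as often as any gene. All 3 muscle RBM genes rose: Rbm24, a splicing factor of heart and skeletal muscle, went from 7.34 and 9.23 CPM in the controls to 52.8 and 86.1 CPM (log2 fold change 3.07 ± 0.28, adjusted p = 0.00259), Rbm20, which acts on titin, by 1.88 ± 0.32, and Rbm38 by 0.92 ± 0.15. Cardiomyocyte-like cells made up 19.3% and 20.8% of DUX-pulsed cells and a smaller share, 4.85% and 3.45%, of the controls. The part of this in the rises was not tested. Within cardiomyocyte-like cells Rbm24 rose by 0.70 (adjusted p = 0.0274), and Rbm20 and Rbm38, at 0.10 and 0.19, did not pass the test.

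Other regulators moved in both directions. Khdrbs3, a STAR family RNA-binding protein, had a log2 fold change of 1.23 ± 0.14 (adjusted p = 0.00362), and Rbms2 by 1.49 ± 0.15 (adjusted p = 0.00275). Msi2, a Musashi protein of progenitor cells, rose by 1.07 ± 0.26 (adjusted p = 0.0316). Rbm47 had a log2 fold change of -1.41 ± 0.22 (adjusted p = 0.00826, edgeR). Esrp1, the epithelial splicing regulator, fell by 0.68 ± 0.18 (adjusted p = 0.0407), and Celf4, of the family that often opposes muscleblind proteins, fell by 1.04 ± 0.25 (adjusted p = 0.0267). These values are for the whole culture. Rbm47, Esrp1 and Celf4 were called lower in no fitted class. Esrp1 stood at 0.581, 0.415 and 0.391 in clusters 10, 16 and 5 and did not pass the test there. Khdrbs3 and Msi2 were each called higher in 1 of 5 fitted classes, and Rbms2 in 2.

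Some regulators rose in nearly every class. Hnrnpa0 stood at 186.5 and 181.6 CPM in the controls and 533.3 and 439.1 CPM in the DUX-pulsed libraries (log2 fold change 1.40 ± 0.17, adjusted p = 0.00389), and it rose in all 5 fitted classes. Srsf10 stood at 84.0 and 85.1 CPM in the controls and 160.9 and 149.9 CPM in the DUX-pulsed libraries (0.88 ± 0.14, adjusted p = 0.00843), and it rose in 4 of 5. Hnrnpa0 lies on chromosome 13, where its 20 tested neighbours had a median of 0.82 with 13 higher and 2 lower. Srsf10 lies on chromosome 4, where its neighbours had a median of 1.10 with 15 higher. Rbm24 lies on chromosome 13 too, with a neighbour median of 1.59. The part of these neighbourhoods in the rises was not tested.

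Within single classes, the share of splicing regulators called lay near that of all genes tested there, and was higher in cluster 5. In cardiomyocyte-like cells 6 of 76 rose and 4 fell (13.2%, against 17.3% of all genes, with 9.1% of all genes higher and 8.21% lower). In mesenchyme and fibroblast-like cells 5 of 79 rose and none fell by edgeR (6.33%, against 7.25%, with 4.22% higher and 3.04% lower). There 2 were lower at an unadjusted p of 0.05, and DESeq2 called 8 higher and 1 lower. The shares of all genes are from edgeR at the adjusted threshold and do not serve for these counts. In cluster 10, 8 of 77 rose and 2 fell (13.0%, against 12.0%, with 5.84% higher and 6.12% lower). In cluster 16, 1 of 75 rose and 1 fell (2.67%, against 4.4%, with 2.63% higher and 1.77% lower). In cluster 5, 8 of 76 rose and 1 fell (11.8%, against 7.06%, with 4.31% higher and 2.75% lower).

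Transcripts that muscleblind proteins are known to splice were counted for their level alone, since a count per gene shows no splicing. Of 30 listed, 29 were tested, 12 rose and 1 fell (44.8%, against 26.7% of all genes), with a median log2 fold change of 0.65. Of all genes tested, 15.6% were called higher and 11.1% lower. Tnnt2, cardiac troponin T, rose from 165.8 and 130.4 to 709.0 and 678.1 CPM (2.23 ± 0.18, adjusted p = 0.00248). Kif13a rose by 2.09 ± 0.22 (adjusted p = 0.00284) and Capzb, an actin capping protein, by 1.29 ± 0.15 (adjusted p = 0.00359). Dmd, which encodes dystrophin, fell by 0.85 ± 0.21 (adjusted p = 0.0326), and it rose within cardiomyocyte-like cells by 0.96 (adjusted p = 0.0363). Tnnt2 had a log2 fold change of -0.12 within cardiomyocyte-like cells and did not pass the test there (adjusted p = 0.786). Capzb rose in all 5 fitted classes. Kif13a lies in a stretch of chromosome 13 with a neighbour median of 1.59. Within cardiomyocyte-like cells 5 of 22 tested targets rose and 1 fell (27.3%, against 17.3% of all genes).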

How the data were processed

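The deposited table held UMI counts per gene and cell for 10090 cells of 4 libraries, which the authors had not normalized, as whole numbers show. Per the submitters' processing notes, Cell Ranger 2.2.0, STAR and the build mm10 were used, and their settings are not given in the sources used here. Columns were assigned by the start (group) and end (replicate) of the cell name.

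The 8876 cells with 500 or more detected genes and a mitochondrial share of 10% or less were used. Library sums were fitted with edgeR 4.0.16 (quasi-likelihood, TMM) for genes with 10 counts in 2 libraries and 40 in all. P-values were two-sided, adjusted over all genes tested, with 0.05 as threshold. SE is the log2 fold change divided by the square root of F. The spread between 2 libraries per group limits precision.

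Clusters came from scanpy 1.11.5 and igraph 0.11.9 (2000 variable genes, among them 2 of the 3 muscleblind genes, 30 principal components, 15 neighbours, Leiden resolution 1), without batch correction. Rules for naming clusters were set after the data were seen. Doublets were kept: Scrublet called 27 (0.3%), too few to have worked, so removal of the top 5% of scores was an alternative. Cells of low depth were left out of the class results. Named list genes were, for each family, the gene called in each direction with the smallest p and at least 10 CPM, and up to 3 in each direction for muscleblind targets. Neighbours (10 tested genes on each side) were named where called. For likeness the 5 genes of highest correlation were taken for each member, and 1 of them is not reported here. Rbm20, Rbm38 and the X- and Y-linked genes were named after their values were seen. Members and lists were chosen with earlier results of these data known. The scripts were tested on simulated data. Alternatives were DESeq2 1.42.0, library totals, filters on genes and cells, thinning to 5000 UMIs, other clusterings, a replicate block and leaving out each library.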

Additional observations from a re-analysis of the deposited data

Results flagged for a closer look

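Mbnl3 values went in opposite directions in different fitted classes and clusters, and in each of the 5 the library values of the groups did not overlap. In those 5, between 24.2% and 29.5% of all tested genes lay above and between 24.7% and 28.2% below without overlap. As log2 ratios of mean CPM, the difference between mesenchyme and fibroblast-like cells and cluster 10 was 4.74, and against cluster 5 it was 4.11. Between cluster 16 and cluster 10 it was 4.48, and against cluster 5 it was 3.85. Between cardiomyocyte-like cells and cluster 10 it was 2.72, and against cluster 5 it was 2.09. None of these differences was tested. The Mbnl3 values of cardiomyocyte-like cells, cluster 5 and cluster 10 rest on 33 to 35 UMIs each over 4 libraries. Their 95% intervals for counting error overlapped between groups. In cluster 5 they were 0.942 to 8.85 CPM in control replicate 2 and 1.10 to 3.54 CPM in DUX-pulsed replicate 1. In cluster 10 they were 1.64 to 11.75 CPM in control replicate 1 and 1.12 to 3.30 CPM in DUX-pulsed replicate 1. At the finer resolution the clusters led by Ghrl held fewer control cells, as given above.

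Mbnl1 was higher in both DUX-pulsed libraries in cluster 16 and cluster 5 and lower in both in cardiomyocyte-like cells. In cardiomyocyte-like cells the fitted log2 fold change, -0.12 ± 0.23 (SE), was smaller than its SE. The log2 ratios of mean CPM in clusters 16 and 5 differed from that of cardiomyocyte-like cells by 1.72 and 0.94. These differences were not tested either.

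Cells removed by the filter on detected genes and mitochondrial share were in no comparison above. In them the DUX-pulsed libraries had mean levels of 37.2 CPM for Mbnl1, 167.0 CPM for Mbnl2 and 41.1 CPM for Mbnl3, each above both controls. The 2 Mbnl3 values were 19.4 and 62.8 CPM, against 4.21 and 1.97 CPM in the removed control cells.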

How the results depend on the processing

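In the whole culture every alternative kept the 3 muscleblind genes higher in DUX-pulsed libraries. Mbnl2 ran from 1.57 to 1.90 on the log2 scale. Mbnl1 was 0.69 under a stricter cell filter (1000 detected genes or more, 5% mitochondrial counts or less), and 1.03 with cells thinned to 5000 UMIs. Mbnl3 was 3.59 with thinned cells and 3.65 as a mean over cells. Within mesenchyme and fibroblast-like cells Mbnl3 was 2.55 at Leiden resolution 2 and 2.46 with muscleblind genes out of the clustering. Mbnl1 in that class turned to 0.008 under the stricter cell filter. Leaving out 1 library moved Mbnl1 from -0.25 to 0.18 there and from -0.28 to 0.23 in cluster 10.

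The share of all genes called under each alternative setting is not given here. The counts below therefore do not show whether the lists changed more than other genes did. With the stricter cell filter 10 splicing regulators rose and 2 fell in the whole culture, 6 muscleblind targets rose, 2 regulators fell in cardiomyocyte-like cells and 1 fell in mesenchyme and fibroblast-like cells. With thinned cells 0 targets fell. DESeq2 called 1 regulator lower in cluster 10, 3 higher and 2 lower in cluster 16, and 8 higher and 1 lower in mesenchyme and fibroblast-like cells. In that class resolution 2 called 3 higher, and clustering without muscleblind genes called 3 higher and 1 lower.

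Leaving out 1 library, the regulators that rose in the whole culture ranged from 11 to 20 and those that fell from 1 to 5. Both lowest counts came without control replicate 2, and 3 fell without control replicate 1. Targets that fell ranged from 0 (without control replicate 2) to 2 (without DUX-pulsed replicate 2). Regulators that fell ranged from 1 to 2 in cardiomyocyte-like cells and from 0 to 2 in cluster 10. In cluster 16 they rose in 1 to 6 (6 without control replicate 2) and fell in 0 to 2, in cluster 5 they rose in 5 to 7 and fell in 0 to 1, and in mesenchyme and fibroblast-like cells they rose in 1 (without control replicate 1) to 7 and fell in 0 to 2.

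Replicate numbers are shared by the groups, and same-numbered libraries deviated together (r = 0.56 over 8589 genes), but nothing in the labels ties them and 2 pairs are too few to show it. With the replicate number as a block, 11 regulators and 5 targets fell in the whole culture. The rises in that fit are not given here, so these falls show no shift of either list in one direction. In the block fit 14 regulators rose in cardiomyocyte-like cells, where the falls are not given here. In cluster 16, 15 rose and 4 fell, in cluster 5, 15 rose and 5 fell, and in mesenchyme and fibroblast-like cells 13 rose and 3 fell. These block counts, too, stand without the share of all genes called in the same fit. The cause of these changes was not tested.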
